A study of Homo sapiens with 18 samples.

Results

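The genes described here are 40 markers of proliferating cells, 14 that act in DNA replication (S phase), 23 that act in mitosis and 3 transcription factors that drive them. They were chosen by symbol, and all 40 were found among the 12853 genes of the deposited RNA-seq table. A cell that divides copies its DNA in S phase and then separates the copies in mitosis. The S phase genes are switched on largely by E2F transcription factors, whereas many mitosis genes are switched on later by a complex that contains MYBL2 and FOXM1 and reads the CHR element, often beside CCAAT boxes. Because both sets are high in dividing cells and low in resting ones, they are widely read as a measure of tumor cell growth, and platinum lesions in DNA block replication.

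RNA-seq was performed in 18 libraries, 3 replicates of each of 6 human ovarian cancer cell lines that form 3 pairs of a platinum-sensitive and a resistant line. A2780 (sensitive) and CP70 (resistant) are a pair in which resistance was selected in culture, and A2780 is labelled as an endometrial/ovarian line. PEA1 (sensitive) and PEA2 (resistant) came from ascites of 1 patient with high-grade serous cancer, before platinum chemotherapy and after resistant relapse. PEO1 (sensitive) and PEO4 (resistant) came from another such patient, both after platinum chemotherapy, before and after clinical resistance developed. All lines were grown in the same medium, and the labels name no drug given to these cultures. Each condition in a pair is 1 line, so resistance and any other difference between 2 lines cannot be told apart. The labels do not say whether replicates were separate cultures, so the tests measure the spread between libraries, which may be technical.

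Reads on listed genes per library ranged from 1344098 to 1670866 in PEA1 and from 2130465 to 4027657 in PEA2, so the 2 lines of the PEA pair did not overlap in depth. They ranged from 2077384 to 3461770 in A2780, 3400531 to 5479562 in CP70, 2785569 to 7067336 in PEO1 and 2516688 to 2966814 in PEO4. The smallest number of reads behind any member was 18, for CDC45 in a PEA1 library, and all 40 had a mean log2 CPM (log2 reads scaled to library size, not divided by gene length) above the 4.73 of the median gene. In A2780, 5 of 6 epithelial markers and all 4 ovarian serous markers (PAX8, WT1, MUC16 and MSLN) had at most 3 reads in every library, and in CP70 so did 3 of each. The epithelial markers summed to 156 to 204 CPM in PEA1 and 3744 to 3916 CPM in PEA2, against 4684 to 4925 CPM in PEO1 and 3252 to 3677 CPM in PEO4. They summed to 3.08 to 4.47 CPM in A2780 and 90.1 to 96.3 CPM in CP70. The 5 fibroblast markers listed summed to 367 to 449 CPM in PEA1 and 4.17 to 7.73 CPM in PEA2, where the PEA1 value was COL1A1 and the other 4 (COL1A2, COL3A1, DCN and LUM) had 0 reads in every PEA1 library. They summed to 4.08 to 7.76 CPM in PEO1 and 78.5 to 84.9 CPM in PEO4, and to 510 to 721 CPM in A2780 and 870 to 1009 CPM in CP70, mostly as COL3A1 in PEO4, A2780 and CP70. PTPRC, the only leukocyte marker listed, and CDH5, the only endothelial one, were at 20.3 to 25.3 and 25.5 to 36.4 CPM in PEA2, and had at most 3 reads in every library of the other lines. The part of these marker differences in the results below was not tested.

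The letters that these genes carry in front of their start sites were read from RefSeq promoter windows, 250 bases before to 50 after the start (GRCh38.p14). A window was listed for 33 of the 40 genes, and FOXM1, TTK, MCM5, UBE2C, AURKA, BIRC5 and TPX2 had no entry. Both strands were searched for the CHR (TTTGAA), its variant (TTTAAA), the CCAAT box (CCAAT), an E2F site (TTTCCCGC, TTTCGCGC, TTTGCCGC or TTTGGCGC) and the TATA box (TATAAA). Of the 18 mitosis genes with a window, 12 (66.7%, exact 95% interval 41.0 to 86.7) held a CHR, against 1 of 13 S phase genes (7.69%, 0.195 to 36.0) and 18.2% of all 27305 genes with a window. For the E2F site the order was the other way, with 9 of 13 S phase genes (69.2%, 38.6 to 90.9), 2 of 18 mitosis genes (11.1%, 1.38 to 34.7) and 3.99% of all genes. The CCAAT box was found in both sets, in 15 of 18 mitosis genes (83.3%) and 10 of 13 S phase genes (76.9%), against 39.7% of all genes. The variant CHR was held by 9 of 18 mitosis genes (50%), 23.1% of the S phase genes and 14.5% of all genes. The TATA box was no more frequent among the members (12.1%) than among all genes (14.0%). A match describes letters only and shows neither binding nor a cause of any difference below.

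**Figure D1:**
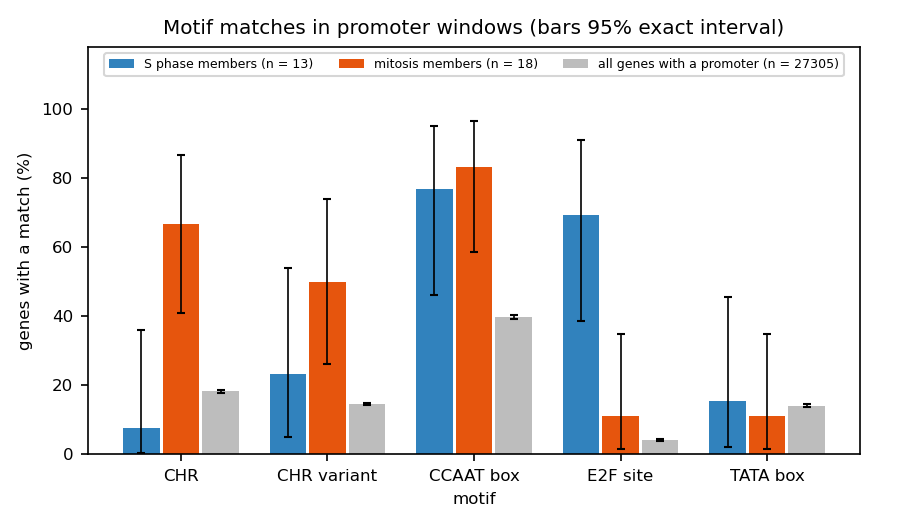
Share of genes (%, vertical axis) whose promoter window holds each motif (horizontal axis), for S phase members, mitosis members and all genes with a window, with exact 95% intervals. The CHR bar is highest for mitosis genes at 66.7%, the E2F bar is highest for S phase genes at 69.2%, and the CCAAT bars of both sets lie above the 39.7% of all genes.

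Windows of the genes on which the comparisons turn are shown here, each 5′ to 3′ on the strand of the gene, with motif matches in capitals. The first 4 are mitosis genes. CCNB2 and CDC20 moved together in all 3 pairs, KIF20A rose most in 2 of them, and CDK1 fell most in CP70.
CCNB2 (chr15:59104896-59105195, plus strand): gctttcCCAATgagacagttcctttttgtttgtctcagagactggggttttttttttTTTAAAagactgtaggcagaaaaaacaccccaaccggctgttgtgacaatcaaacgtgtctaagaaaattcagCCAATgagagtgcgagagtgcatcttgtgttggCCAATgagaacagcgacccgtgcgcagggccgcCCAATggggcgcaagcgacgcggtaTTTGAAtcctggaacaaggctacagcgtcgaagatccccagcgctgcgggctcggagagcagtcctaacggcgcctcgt
CDC20 (chr1:43358731-43359030, plus strand): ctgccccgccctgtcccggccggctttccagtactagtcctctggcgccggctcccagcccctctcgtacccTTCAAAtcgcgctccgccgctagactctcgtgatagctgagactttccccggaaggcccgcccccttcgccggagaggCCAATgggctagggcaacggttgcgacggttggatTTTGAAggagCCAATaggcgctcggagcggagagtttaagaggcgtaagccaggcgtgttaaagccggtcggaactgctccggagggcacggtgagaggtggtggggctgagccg
KIF20A (chr5:138178862-138179161, plus strand): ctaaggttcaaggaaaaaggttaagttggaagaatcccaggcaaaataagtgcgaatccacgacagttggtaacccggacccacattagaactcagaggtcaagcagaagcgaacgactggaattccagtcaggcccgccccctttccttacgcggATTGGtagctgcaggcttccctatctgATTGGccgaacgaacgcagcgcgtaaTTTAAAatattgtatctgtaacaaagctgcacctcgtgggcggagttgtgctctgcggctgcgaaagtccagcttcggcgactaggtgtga
CDK1 (chr10:60778081-60778380, plus strand, the first of 2 listed starts): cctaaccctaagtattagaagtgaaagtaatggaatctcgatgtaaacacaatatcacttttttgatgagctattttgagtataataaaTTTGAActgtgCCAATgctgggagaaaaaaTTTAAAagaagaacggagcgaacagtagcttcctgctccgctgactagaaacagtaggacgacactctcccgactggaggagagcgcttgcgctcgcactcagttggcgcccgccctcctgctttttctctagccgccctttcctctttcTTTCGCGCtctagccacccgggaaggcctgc
In the CCNB2 window 4 CCAAT boxes preceded a CHR that began 29 bases before the start, and in CDC20 a CHR at 65 bases before the start lay just before a CCAAT box. KIF20A held no CHR, but the variant letters 41 bases before the start, behind 2 CCAAT boxes on the other strand. CDK1 was the only one of these 4 with an E2F site, 20 bases after this start.

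The next 5 are S phase genes. PCNA fell in all 3 pairs, TYMS and CDC45 hold the largest fall and rise of the set, and MCM2 and MCM3, both subunits of 1 helicase, moved in opposite directions.
PCNA (chr20:5126573-5126872, minus strand, the first of 2 listed starts): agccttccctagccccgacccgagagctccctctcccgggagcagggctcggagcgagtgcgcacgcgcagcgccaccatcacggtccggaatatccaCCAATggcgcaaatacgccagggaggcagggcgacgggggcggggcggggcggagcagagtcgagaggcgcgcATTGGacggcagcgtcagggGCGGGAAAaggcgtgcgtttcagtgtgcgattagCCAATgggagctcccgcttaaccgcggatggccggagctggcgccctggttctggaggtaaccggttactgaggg
TYMS (chr18:657403-657702, plus strand): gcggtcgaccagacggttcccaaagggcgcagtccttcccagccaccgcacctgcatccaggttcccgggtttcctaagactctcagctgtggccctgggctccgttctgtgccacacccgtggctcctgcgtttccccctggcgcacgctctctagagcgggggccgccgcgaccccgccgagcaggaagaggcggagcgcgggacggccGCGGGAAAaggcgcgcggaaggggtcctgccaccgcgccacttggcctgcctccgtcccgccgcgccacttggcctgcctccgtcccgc
MCM2 (chr3:127598161-127598460, plus strand): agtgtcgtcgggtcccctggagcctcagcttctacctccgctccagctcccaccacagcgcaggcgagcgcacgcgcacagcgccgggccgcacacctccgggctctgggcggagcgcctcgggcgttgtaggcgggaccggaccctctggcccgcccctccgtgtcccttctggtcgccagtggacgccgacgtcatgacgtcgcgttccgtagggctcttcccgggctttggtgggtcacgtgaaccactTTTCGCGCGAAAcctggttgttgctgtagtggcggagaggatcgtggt
MCM3 (chr6:52284693-52284992, minus strand): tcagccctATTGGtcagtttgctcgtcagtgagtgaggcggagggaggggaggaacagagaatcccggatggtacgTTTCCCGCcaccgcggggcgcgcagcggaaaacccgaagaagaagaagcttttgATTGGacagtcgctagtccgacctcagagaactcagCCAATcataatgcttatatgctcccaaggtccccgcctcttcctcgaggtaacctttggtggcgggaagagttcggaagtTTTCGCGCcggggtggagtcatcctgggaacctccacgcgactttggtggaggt
CDC45 (chr22:19479670-19479969, plus strand, the first of 3 listed starts): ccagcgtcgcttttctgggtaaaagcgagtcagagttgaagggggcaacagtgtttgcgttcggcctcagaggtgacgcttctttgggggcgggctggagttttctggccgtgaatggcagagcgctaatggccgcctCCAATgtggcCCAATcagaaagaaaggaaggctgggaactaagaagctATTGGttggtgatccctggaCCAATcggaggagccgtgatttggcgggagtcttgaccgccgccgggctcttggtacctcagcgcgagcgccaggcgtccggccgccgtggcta
PCNA, TYMS, MCM2 and MCM3 held an E2F site, CDC45 held none but 4 CCAAT boxes, and these 5 windows held no CHR. The 2 matches in MCM2 share letters and read the same site on both strands. PCNA and MCM3 also held 3 CCAAT boxes each, and TYMS and MCM2 held none.

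Across the 6 lines, the S phase genes were highest in the A2780 pair and lowest in PEO4. Their mean level was 7.56 ± 0.08 log2 CPM (SD over 3 libraries) in A2780 and 7.45 ± 0.01 in CP70, then 6.75 ± 0.06 in PEA1, 6.72 ± 0.10 in PEA2, 6.71 ± 0.005 in PEO1 and 6.34 ± 0.10 in PEO4. PEA1, PEA2 and PEO1 differed by less than the spread of their libraries. The mean of the mitosis genes followed another order, with 7.61 ± 0.02 in PEA1, 7.45 ± 0.02 in CP70, 7.33 ± 0.07 in A2780, 7.31 ± 0.02 in PEA2, 7.10 ± 0.06 in PEO1 and 7.03 ± 0.09 in PEO4, where A2780 and PEA2, and PEO1 and PEO4, lay within their spread. The 40 genes together took 0.901% to 0.992% of the reads in A2780 and CP70, 0.895% to 0.902% in PEA1, 0.637% to 0.647% in PEA2, 0.616% to 0.703% in PEO1 and 0.561% to 0.634% in PEO4.

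Single genes departed from these means. PEO4 was the lowest line for 17 of the 40 genes and the highest for 2, KIF20A and BIRC5, whereas PEA1 was the highest for 13, 10 of them mitosis genes, and A2780 for 11, 8 of them S phase genes. TK1, the thymidine kinase of the salvage pathway, was higher in PEO1 and PEO4 (7.97 to 8.42 log2 CPM) than in any library of the other lines (6.22 to 7.34). The range of the 6 line means was 0.35 log2 units for AURKA, the kinase that matures spindle poles, 0.42 for UBE2C, 0.47 for TOP2A and 0.60 for KIF11, and it reached 2.84 for GINS2, a subunit of the replicative helicase. Its median over the members was 1.46, against 1.44 over all 5584 genes in the same range of mean log2 CPM, so as a group these genes varied between lines about as much as other genes of like read number.

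**Figure D2:**
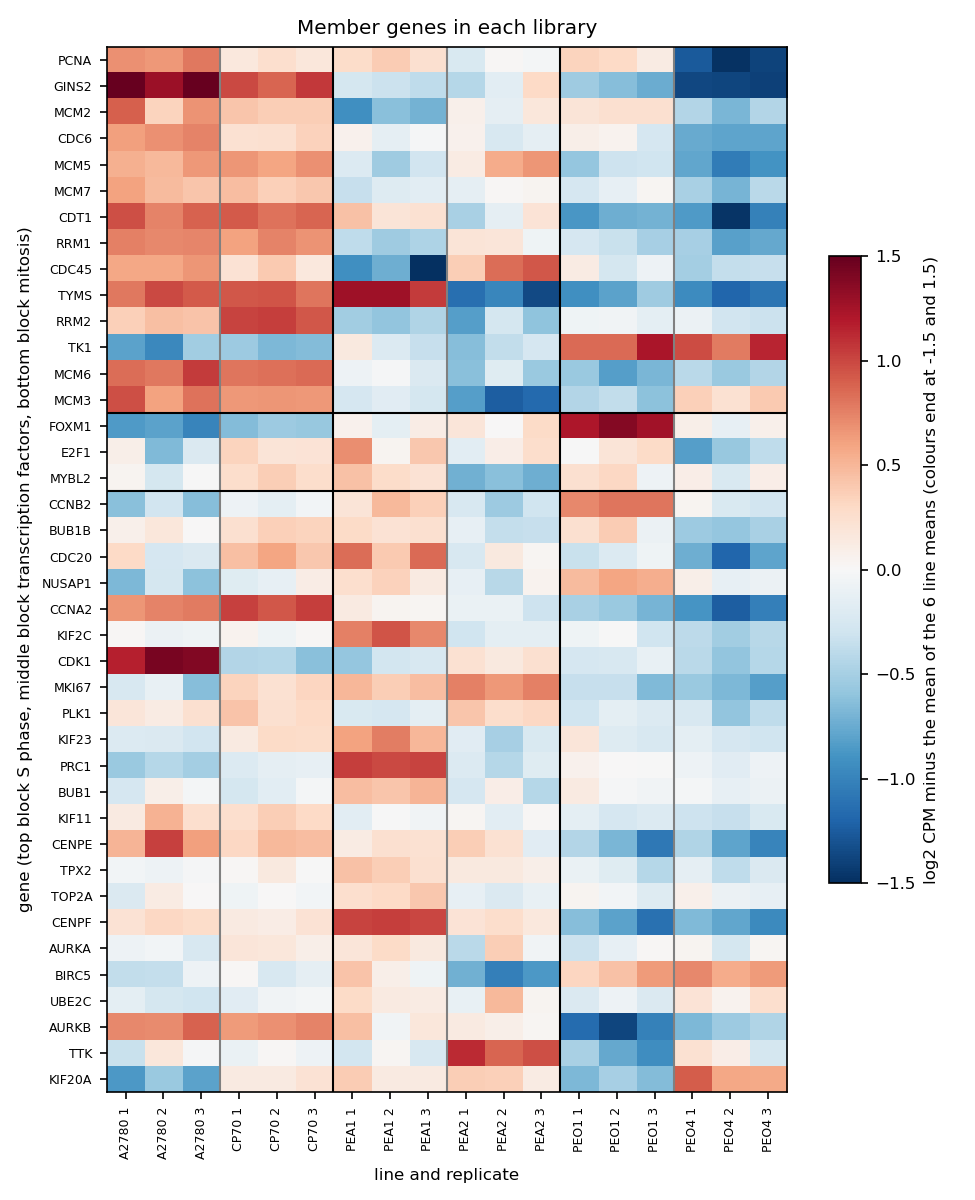
Each row is a member gene and each column a library, coloured by its log2 CPM minus the mean of the gene's 6 line means. The top block (S phase) is mostly red in A2780 and CP70 and blue in PEO4, the bottom block (mitosis) is reddest in PEA1, and rows such as TK1, FOXM1, CDK1 and TTK depart from their block.

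In CP70 against A2780, more of the called mitosis genes were higher than lower, all 3 transcription factors were higher, and more of the called S phase genes were lower. Of the 40 genes, 12 rose and 4 fell at a limma FDR below 0.05, where 22.2% of all 12853 genes rose and 17.7% fell. The called share of 40.0% was near the 43.9% of genes in the same range of mean level. By role, 8 of 23 mitosis genes rose and 1 fell, 1 of 14 S phase genes rose and 3 fell, and all 3 transcription factors rose. The median log2FC was 0.07 over the members and -0.02 over all genes. It was 0.15 over mitosis genes and -0.08 over S phase genes, and the latter became 0.01 with quantile normalization. None of the 40 had a log2FC above 2 or below -2, so the count was 0 whatever the p. Of all genes, 9.06% had one at an FDR below 0.05. In bulk RNA, fewer cells in a phase and less RNA of a gene per cell cannot be told apart.

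CDK1 (ENSG00000170312, GRCh37 chr10:62538089-62554610, plus strand), the kinase that starts mitosis, fell most. It was at 8.39, 8.64 and 8.61 log2 CPM in A2780 and 6.77, 6.78 and 6.59 in CP70, a gap many times the spread within either line (log2FC = -1.83 ± 0.10, FDR = 9.26e-12 (SE), n = 3 against 3). Of the cyclins that bind it, the members CCNB2 and CCNA2 went the other way, although some settings lost the CCNA2 call, as given below. CCNB2 was at 6.03, 6.37 and 6.01 in A2780 and 6.57, 6.51 and 6.61 in CP70 (log2FC = 0.43 ± 0.12, FDR = 0.00607), and CCNA2 had a log2FC of 0.27, FDR = 0.0293. The libraries of the 2 lines did not overlap for any of the 16 called genes, nor for AURKA, BUB1B, TPX2, CENPE and CDC45, which were not called, 21 of 40 where 54.6% of all genes did not overlap.

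KIF20A, a motor protein of cytokinesis, rose most, from 6.07, 6.37 and 6.13 log2 CPM in A2780 to 7.06, 7.06 and 7.15 in CP70 (log2FC = 0.90 ± 0.11, FDR = 1.66e-06). The Ki-67 antigen gene MKI67 was at 9.06, 9.19 and 8.66 in A2780 and 9.63, 9.53 and 9.62 in CP70 (log2FC = 0.62 ± 0.12, FDR = 0.000234). CDC20, which activates the ubiquitin ligase that ends mitosis, was at 7.51, 6.97 and 7.0 and 7.67, 7.80 and 7.61 (log2FC = 0.54 ± 0.16, FDR = 0.00947). Of these, A2780 replicate 1 came closest to CP70 for CDC20, and the CDC20 call was lost without A2780 replicate 2 (FDR = 0.0517) or 3 (FDR = 0.052). KIF23 and PRC1, which build the central spindle with KIF20A, rose by 0.47 and 0.34 (FDR = 0.00193 and 0.00201), and NUSAP1, a spindle protein, by 0.46 (FDR = 0.00575). OIP5-AS1 overlaps NUSAP1 on the same strand and fell (log2FC = -0.71, FDR = 1.44e-06). OIP5, on the other strand, passed no test (log2FC = 0.69, FDR = 0.134).

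Among S phase genes, PCNA, the sliding clamp of the DNA polymerases, was at 8.41, 8.38 and 8.52 log2 CPM in A2780 and 7.89, 7.97 and 7.90 in CP70 (log2FC = -0.52 ± 0.09, FDR = 9.06e-05). CDC6, which loads the replicative helicase at origins, was at 7.43, 7.50 and 7.55 and 7.04, 7.05 and 7.16 (log2FC = -0.41 ± 0.10, FDR = 0.00289). GINS2 was at 6.72, 6.49 and 6.80 and 6.20, 6.08 and 6.27 (log2FC = -0.49 ± 0.15, FDR = 0.015). In all 3 genes every CP70 library lay below every A2780 library, but the GINS2 call was lost without A2780 replicate 3 (FDR = 0.0702) or CP70 replicate 2 (FDR = 0.0649). GINS2 overlaps GSE1 on the other strand, and GSE1 rose (log2FC = 0.99, FDR = 4.9e-08). RRM2, the small subunit of ribonucleotide reductase, rose from 8.61, 8.71 and 8.68 to 9.27, 9.29 and 9.18 (log2FC = 0.58 ± 0.11, FDR = 0.000175), while its large subunit RRM1 had a log2FC of -0.07, FDR = 0.628.

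Of the transcription factors, E2F1, which drives S phase genes, was at 5.12, 4.38 and 4.83 log2 CPM in A2780 and 5.38, 5.23 and 5.25 in CP70 (log2FC = 0.51 ± 0.19, FDR = 0.0427). FOXM1 was at 6.82, 6.88 and 6.69 and 7.02, 7.13 and 7.11 (log2FC = 0.29 ± 0.10, FDR = 0.0194), and MYBL2 had a log2FC of 0.38, FDR = 0.0106. The libraries did not overlap, but the differences were small and these calls were among the 6 of this pair that other settings lost. E2F1 was lost without A2780 replicate 2 or 3, any CP70 replicate, PEO1 replicate 2 or PEO4 replicate 2 (FDR 0.0502 to 0.227) and FOXM1 without A2780 replicate 3 or CP70 replicate 2 or 3 (0.0587 to 0.0945). MYBL2 was lost without A2780 replicate 2 (FDR = 0.0648) and CCNA2 without A2780 replicate 1 or CP70 replicate 1 or 3 (0.0831 to 0.0983). With equal library medians E2F1, FOXM1 and CCNA2 were lost (FDR 0.0631, 0.0620 and 0.0858), without limma's variance trend E2F1 and CCNA2 (0.0571 and 0.0585), and with quantile normalization E2F1 (0.0730). ITFG2 overlaps FOXM1 on the other strand and rose in CP70 as well (log2FC = 0.62, FDR = 0.0443). RHNO1, which overlaps FOXM1 on that strand too, passed no test (log2FC = -0.11, FDR = 0.533). TOP2A, the topoisomerase that untangles chromosomes, was at 9.19, 9.54 and 9.41 and 9.35, 9.42 and 9.37, which overlapped (log2FC = 0.00 ± 0.09, FDR = 0.996).

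The remaining members passed no test in this pair. Among mitosis genes their log2FC ran from -0.30 for CENPE, a kinetochore motor, to 0.27 for AURKA, and among S phase genes from -0.35 for CDC45, a helicase subunit, to 0.14 for TK1. In between were BUB1B (0.23), UBE2C (0.16), BIRC5 (0.15), PLK1 (0.14), TPX2 (0.10), BUB1 (-0.09), CENPF (-0.11), AURKB (-0.08), KIF2C, TTK and KIF11. Of the S phase genes, CDT1, TYMS and the 5 member subunits of the MCM helicase, MCM2, MCM3, MCM5, MCM6 and MCM7 (-0.25 to 0.09), were in between too. The subunit MCM4, which is not a member, fell in this pair (log2FC = -0.70, FDR = 3.12e-05).

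In PEA2 against PEA1, more of the called mitosis genes were lower than higher, and S phase genes moved in both directions. Of the 40 genes, 8 rose and 19 fell, where 32.5% of all genes rose and 29.4% fell. The called share of 67.5% was close to the 67.0% of genes in the same range of mean level. By role, 4 of 23 mitosis genes rose and 13 fell, 4 of 14 S phase genes rose and 5 fell, and 1 of the 3 transcription factors, MYBL2, fell. The median log2FC was -0.24 over the members and 0.01 over all genes. Only TYMS also had a log2FC below -2, 1 of 40 genes where 14.1% of all genes were past 2 in either direction, and without PEA1 replicate 2 CDC45 joined it (log2FC = 2.00). The libraries did not overlap for 26 of the 40 genes, where 62.6% of all genes did not. MCM7 was among these and was not called, whereas MCM6 and CDT1 were called although their libraries overlapped. The 2 lines also differed in depth and in the marker genes given above.

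TYMS (ENSG00000176890, chr18:657653-673578, plus strand), the thymidylate synthase that is the target of fluorouracil, was at 7.64, 7.64 and 7.42 log2 CPM in PEA1 and 5.23, 5.39 and 5.01 in PEA2 (log2FC = -2.36 ± 0.12, FDR = 2.29e-12). ENOSF1 overlaps TYMS on the other strand and also fell (log2FC = -1.45, FDR = 1.42e-05). CDC45 rose from 4.15, 4.34 and 3.41 to 5.44, 5.91 and 6.01 (log2FC = 1.82 ± 0.20, FDR = 1.36e-07). The libraries were far apart for both genes, although PEA1 replicate 3 was low for CDC45, and the log2FC without it was 1.54 (FDR = 3.25e-07).

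The subunits of the MCM helicase did not move together. MCM2 was at 6.70, 7.0 and 6.91 log2 CPM in PEA1 and 7.70, 7.48 and 7.79 in PEA2 (log2FC = 0.79 ± 0.12, FDR = 1.19e-05). MCM5 was at 6.54, 6.22 and 6.46 and 6.88, 7.31 and 7.41 (log2FC = 0.79 ± 0.13, FDR = 2.14e-05). MCM3 was at 7.34, 7.41 and 7.32 and 6.76, 6.35 and 6.41 (log2FC = -0.85 ± 0.11, FDR = 1.06e-06). PEA2 was thus above PEA1 in every library for MCM2 and MCM5 and below it in every library for MCM3. The log2FC of the 5 member subunits spanned 1.64 in this pair against 0.34 in the A2780 pair. These spans leave out MCM4, which is not a member and fell by more in CP70 (log2FC = -0.70) than any of the 5. MCM6 fell by 0.36 on the log2 scale (FDR = 0.00817) with libraries that overlapped, and MCM7 had a log2FC of 0.21, FDR = 0.063. The MCM6 call was lost without PEA2 replicate 1 (FDR = 0.0517).

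Of the other S phase genes, RRM1 rose (log2FC = 0.56, FDR = 5.01e-05), PCNA fell from 8.01, 8.11 and 7.97 to 7.50, 7.75 and 7.70 (log2FC = -0.38 ± 0.09, FDR = 0.00097), and CDT1, which works with CDC6 in loading the helicase, fell (log2FC = -0.43, FDR = 0.0278). The CDT1 libraries overlapped and its call was lost without PEA1 replicate 1 or PEA2 replicate 1 or 2 (FDR 0.0536 to 0.181) or with the pair fitted alone (0.0768). GINS2 (0.23), RRM2 (-0.04), CDC6 (-0.07) and TK1 (-0.28) passed no test.

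TTK, a kinase of the spindle checkpoint, rose most among mitosis genes, from 6.39, 6.71 and 6.43 log2 CPM in PEA1 to 7.79, 7.54 and 7.64 in PEA2 (log2FC = 1.15 ± 0.14, FDR = 1.01e-06). CDK1 was at 6.63, 6.94 and 6.97 and 7.44, 7.36 and 7.45 (log2FC = 0.57 ± 0.10, FDR = 7.11e-05). PLK1, a kinase needed for spindle assembly, rose by 0.54 (FDR = 3.59e-05). MKI67 was at 9.80, 9.66 and 9.76 and 10.05, 9.95 and 10.06, a small gap (log2FC = 0.28 ± 0.12, FDR = 0.0467) that turned negative with quantile normalization (-0.09, FDR = 0.561) and whose call was lost without any CP70 or PEA1 replicate, PEA2 replicate 1 or 3, PEO1 replicate 2 or PEO4 replicate 2 (FDR 0.0509 to 0.132), with equal library medians (0.230) or without limma's variance trend (0.0867).

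PRC1 fell most among mitosis genes, from 8.22, 8.18 and 8.20 in PEA1 to 6.99, 6.77 and 7.01 in PEA2 (log2FC = -1.28 ± 0.08, FDR = 5.37e-11). BIRC5 (survivin), a subunit of the chromosomal passenger complex, was at 6.01, 5.67 and 5.52 and 4.86, 4.55 and 4.72 (log2FC = -1.02 ± 0.14, FDR = 2.98e-06). KIF2C, which takes apart microtubules at centromeres, was at 7.73, 7.91 and 7.70 and 6.68, 6.83 and 6.83 (log2FC = -1.0 ± 0.09, FDR = 1.42e-08). All PEA2 libraries lay below all PEA1 libraries in these 3 genes. KIF23 (-0.93), CENPF (-0.81), CCNB2 (-0.71), CDC20 (-0.71), BUB1 (-0.65), BUB1B (-0.53), TOP2A (-0.47), NUSAP1 (-0.41), CCNA2 (-0.24) and TPX2 (-0.23) also fell, so the group holds central spindle, checkpoint, cyclin and kinetochore genes.

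TOP2A was at 9.66, 9.71 and 9.81 in PEA1 and 9.28, 9.19 and 9.30 in PEA2 (FDR = 0.000224), apart in every library. Calls of 3 of these falls were lost in some settings. TPX2, the activator of AURKA, was lost without PEA1 replicate 1 or 2 or any PEA2 replicate (FDR 0.0502 to 0.129), CCNA2 without PEA1 replicate 1 (FDR = 0.102) or PEA2 replicate 3 (FDR = 0.157), and NUSAP1 without PEA2 replicate 2 (FDR = 0.0599). With the PEA pair fitted alone TPX2 and CCNA2 were lost (FDR 0.0647 and 0.0792), as they were without limma's variance trend (0.0692 and 0.0610), and CCNA2 was lost with voom weights (0.0525). EXOSC9 overlaps CCNA2 on the other strand and fell as well (log2FC = -0.72, FDR = 0.00065), and PAK6 overlaps BUB1B on the same strand and rose (log2FC = 2.62, FDR = 0.00219). AURKA (-0.23), AURKB (-0.11), CENPE (-0.06), UBE2C (-0.04), KIF11 (0.03) and KIF20A (0.07) did not pass.

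MYBL2, which acts in the complex that reads the CHR, fell (log2FC = -1.0, FDR = 2.03e-07). FOXM1 was at 7.74, 7.53 and 7.78 log2 CPM in PEA1 and 7.86, 7.68 and 7.96 in PEA2 (log2FC = 0.15 ± 0.10, FDR = 0.189). E2F1 was at 5.74, 5.08 and 5.44 and 4.89, 5.14 and 5.31 (log2FC = -0.31 ± 0.19, FDR = 0.175). For FOXM1 and E2F1 the libraries of the 2 lines overlapped.

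**Figure D3:**
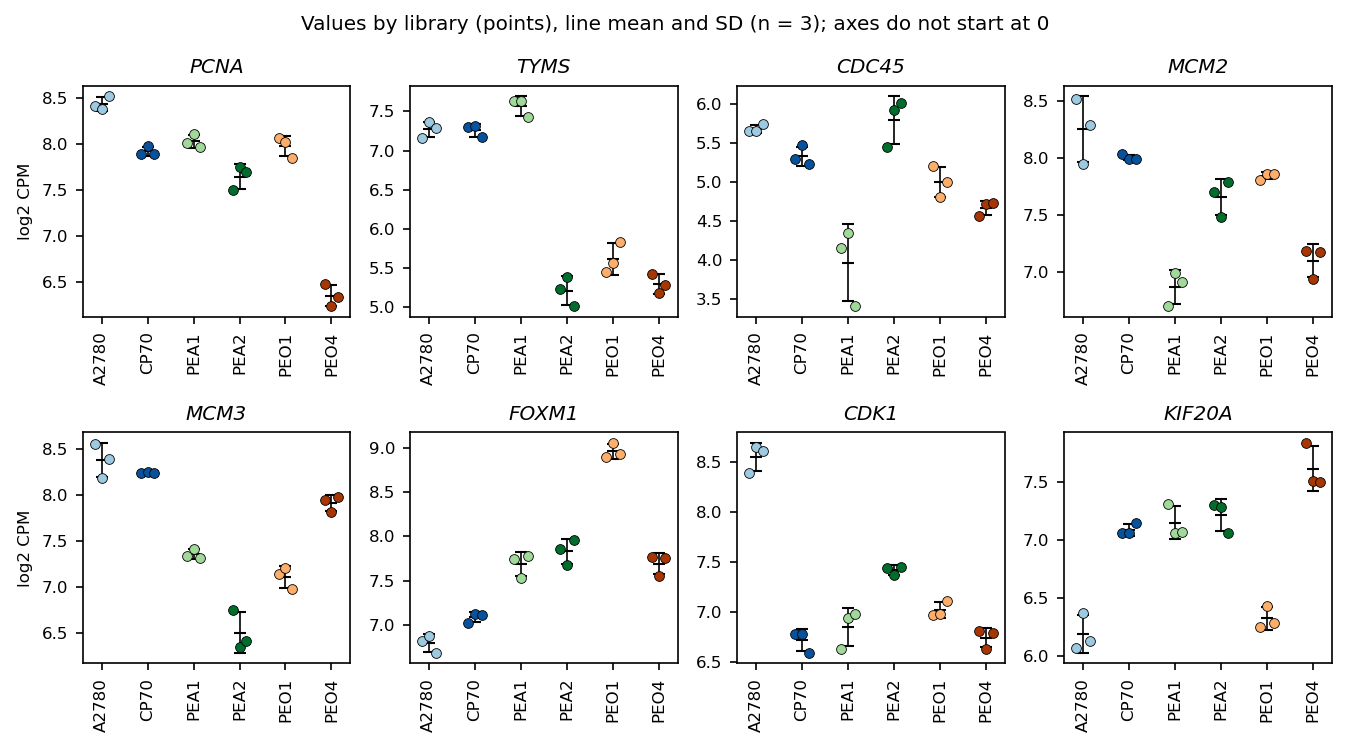
Log2 CPM (vertical axis) of 8 genes in each library (points) of the 6 lines (horizontal axis), with the line mean and SD. PCNA is lowest in the 3 PEO4 libraries (6.24 to 6.47), CDK1 is highest in A2780 (8.39 to 8.64), TYMS is high in the A2780 pair and PEA1 only (7.16 to 7.64), and MCM2 and MCM3 go in opposite directions in the PEA and PEO pairs.

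In PEO4 against PEO1, S phase genes were lower with 1 exception among those called, and FOXM1, E2F1 and several mitosis genes were lower too. Of the 40 genes, 5 rose and 17 fell, where 19.6% of all genes rose and 21.9% fell. The called share of 55.0% compares with 48.5% of genes in the same range of mean level. By role, 1 of 14 S phase genes rose and 8 fell, 4 of 23 mitosis genes rose and 7 fell, and 2 of the 3 transcription factors fell. The median log2FC was -0.21 over the members and -0.02 over all genes, and it was -0.34 over S phase genes. None had a log2FC past 2 in either direction, so the count was 0 whatever the p. Of all genes, 6.22% had one at an FDR below 0.05. The libraries of PEO1 and PEO4 did not overlap for any of the 22 called genes, nor for PRC1, MCM6 and CDC45, which were not called, 25 of 40 where 57.5% of all genes did not overlap. Of the fibroblast markers, COL3A1 (0 reads in every PEO1 library, 156 to 193 in PEO4) and COL1A2 (1 to 2 and 22 to 30 reads) were also higher in PEO4. COL1A1 overlapped in reads (8 to 46 and 12 to 27), and DCN and LUM had at most 1 read in any library of either line. The epithelial markers summed to less in PEO4, as given above, although EPCAM and KRT19 were higher there.

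PCNA (ENSG00000132646, chr20:5095599-5107272, minus strand) fell most, from 8.07, 8.02 and 7.85 log2 CPM in PEO1 to 6.47, 6.24 and 6.34 in PEO4 (log2FC = -1.63 ± 0.09, FDR = 3.11e-11). The PEO4 libraries were also below every library of the other 4 lines. Around the clamp and the helicase, GINS2 (-0.75), MCM2 (-0.74), CDC6 (-0.74), MCM5 (-0.51) and MCM7 (-0.41) fell, as did RRM1 (-0.33) and TYMS (-0.32) of nucleotide synthesis. The TYMS call was lost without PEO1 replicate 2 or 3 or PEO4 replicate 2 or 3 (FDR 0.0551 to 0.200), with the pair fitted alone (0.0552) or without limma's variance trend (0.0590), and the RRM1 call without PEO1 replicate 1 or PEO4 replicate 2 (0.0510 and 0.0550).

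MCM3 was the S phase gene that rose, from 7.14, 7.21 and 6.97 in PEO1 to 7.94, 7.82 and 7.98 in PEO4 (log2FC = 0.81 ± 0.11, FDR = 4.98e-06). MCM2 was at 7.81, 7.86 and 7.86 and 7.19, 6.94 and 7.18 (log2FC = -0.74 ± 0.12, FDR = 4.73e-05). MCM3 and MCM2 therefore again moved apart, each in the direction opposite to that in the PEA pair. The log2FC of the 5 member MCM subunits, without MCM4, spanned 1.55. MCM6 (0.23), CDC45 (-0.33), CDT1 (-0.34), RRM2 (-0.14) and TK1 (-0.01) passed no test.

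FOXM1 (ENSG00000111206, chr12:2966846-2986340, minus strand) was at 8.89, 9.06 and 8.93 log2 CPM in PEO1, above every library of the other lines, and at 7.76, 7.56 and 7.75 in PEO4 (log2FC = -1.27 ± 0.10, FDR = 2.44e-09). ITFG2 and RHNO1 overlap FOXM1 on the other strand and fell as well (log2FC = -0.83, FDR = 0.00797, and log2FC = -0.72, FDR = 0.000192). E2F1 was at 5.04, 5.24 and 5.33 and 4.21, 4.47 and 4.66 (log2FC = -0.75 ± 0.19, FDR = 0.00386). Every PEO4 library was below every PEO1 library for both factors, while MYBL2 had a log2FC of -0.17, FDR = 0.253.

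Among mitosis genes, CCNB2 fell from 7.38, 7.45 and 7.45 to 6.70, 6.42 and 6.37 (log2FC = -0.93 ± 0.12, FDR = 2.18e-06). CDC20 (-0.71), BUB1B (-0.71), NUSAP1 (-0.58), CCNA2 (-0.47), KIF2C (-0.32) and CDK1 (-0.28) fell too. NUSAP1 overlaps OIP5-AS1 on the same strand and OIP5 on the other, and both fell (log2FC = -0.75, FDR = 8.04e-07, and log2FC = -1.59, FDR = 0.00118). CDK1 was at 6.97, 6.98 and 7.11 in PEO1 and 6.81, 6.63 and 6.79 in PEO4 (log2FC = -0.28 ± 0.10, FDR = 0.0354), and its call was lost without PEO1 replicate 2 or 3 or PEO4 replicate 2 or 3 (FDR 0.0533 to 0.146), with quantile normalization (0.0563) or without limma's variance trend (0.0672). The KIF2C call was lost without PEO1 replicate 2 (FDR = 0.0534).

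KIF20A (ENSG00000112984, chr5:137514408-137523412, plus strand) rose most, from 6.25, 6.43 and 6.28 log2 CPM in PEO1 to 7.83, 7.50 and 7.49 in PEO4 (log2FC = 1.29 ± 0.11, FDR = 1.96e-08). BRD8 and CDC23 overlap it on the other strand and rose by similar amounts in this pair (log2FC = 1.42, FDR = 2.06e-07, and log2FC = 1.01, FDR = 2e-05), but not in CP70, where KIF20A rose too (BRD8 log2FC = 0.04, FDR = 0.869, and CDC23 log2FC = 0.17, FDR = 0.415). TTK was at 6.19, 5.90 and 5.74 and 6.90, 6.77 and 6.40 (log2FC = 0.75 ± 0.14, FDR = 0.000316). AURKB, the kinase of the chromosomal passenger complex, was at 4.40, 4.18 and 4.53 and 4.87, 5.01 and 5.10 (log2FC = 0.62 ± 0.13, FDR = 0.000686). Every PEO4 library lay above every PEO1 library in these 3 genes and in UBE2C, the enzyme that hands ubiquitin to the ligase CDC20 activates (log2FC = 0.34, FDR = 0.029), a call lost without PEO1 or PEO4 replicate 1 or 3 (FDR 0.0786 to 0.102) or without limma's variance trend (0.0535).

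MKI67, the usual proliferation marker, was at 8.96, 8.95 and 8.63 in PEO1 and 8.74, 8.63 and 8.47 in PEO4 (log2FC = -0.23 ± 0.12, FDR = 0.124), and only without PEO1 replicate 3 did it pass (log2FC = -0.34, FDR = 0.0344). TOP2A was at 9.45, 9.37 and 9.22 and 9.48, 9.32 and 9.29 (log2FC = 0.02 ± 0.09, FDR = 0.914). The libraries of the 2 lines overlapped for both. BIRC5 (0.17), PLK1 (-0.19), KIF23 (-0.15), PRC1 (-0.13), BUB1 (-0.10), KIF11 (-0.09), AURKA (0.07), CENPF (0.05), CENPE (-0.01) and TPX2 also passed no test.

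**Figure D4:**
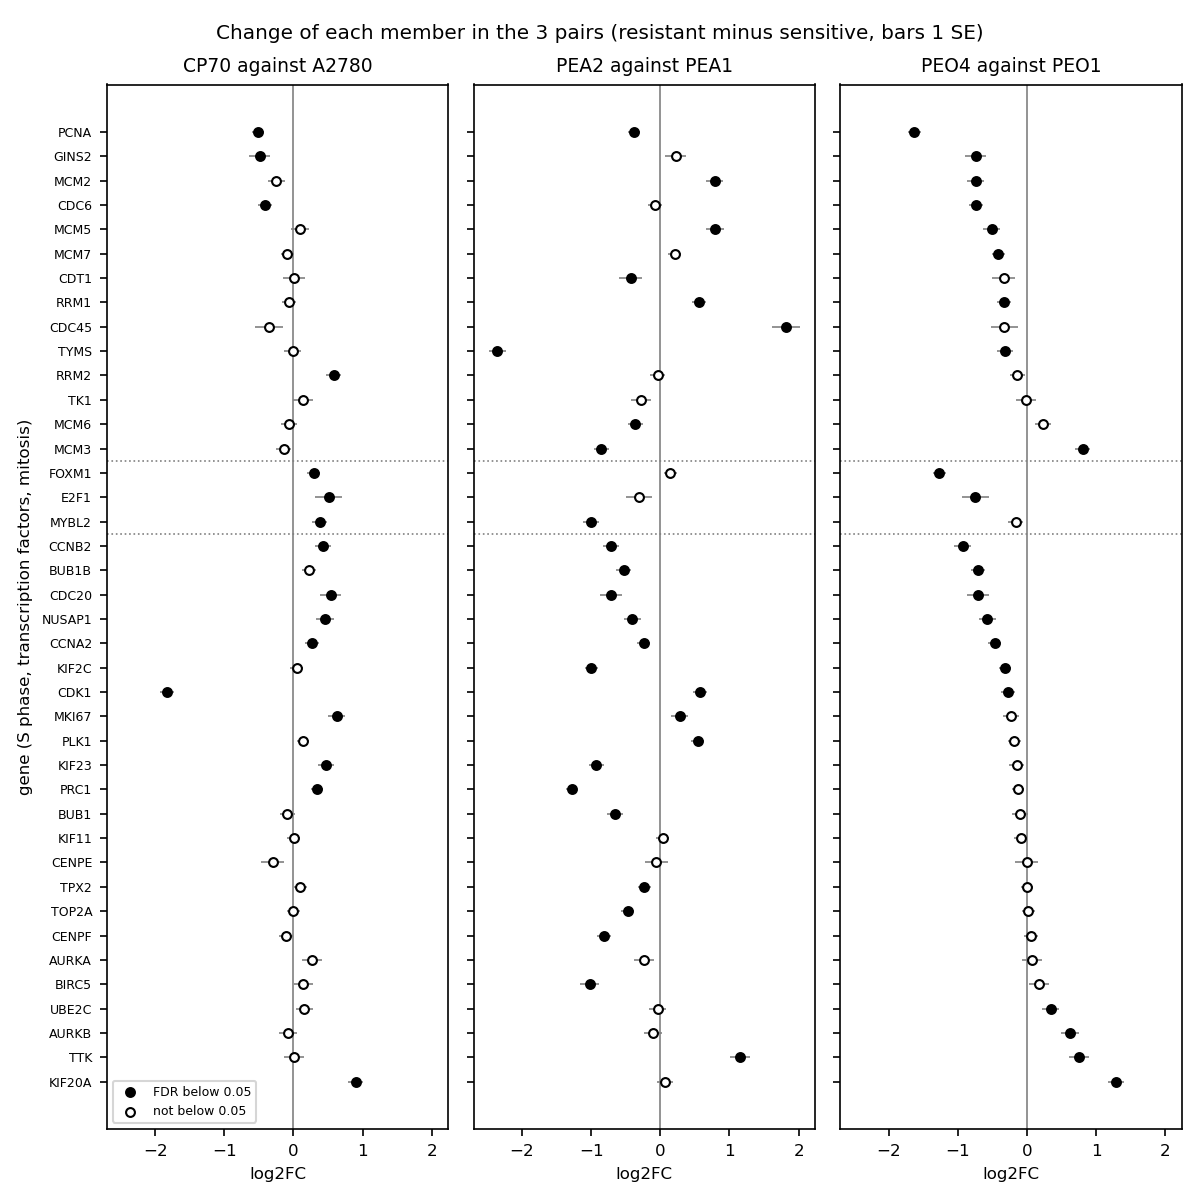
Log2FC (horizontal axis, resistant minus sensitive, bars 1 SE) of the 40 genes (vertical axis) in the 3 pairs, with filled points at a limma FDR below 0.05. PCNA is left of 0 in all 3 panels, whereas CCNB2, CDC20, NUSAP1 and CCNA2 are right of 0 in CP70 and left of 0 in PEA2 and PEO4, and CDK1 is far left (-1.83) in CP70 only.

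Set side by side, the 3 pairs changed partly different members, and many of them in different directions. In at least 1 pair 36 of the 40 genes were called, as were 84.3% of all genes, and AURKA, KIF11, CENPE and TK1 were called in none. PCNA was the only gene that moved the same way in all 3 pairs (-0.52, -0.38 and -1.63 in CP70, PEA2 and PEO4), where 2.8% of all genes did. In 1 pair 14 genes rose and in another they fell, where 27.5% of all genes did. CCNA2, CCNB2, NUSAP1 and CDC20 rose in CP70 and fell in both PEA2 and PEO4, and KIF23, PRC1 and MYBL2 rose in CP70 and fell in PEA2. FOXM1 and E2F1 rose in CP70 and fell in PEO4. MCM2, MCM5 and RRM1 rose in PEA2 and fell in PEO4, MCM3 did the reverse, and CDK1 rose in PEA2 only. Of the 19 genes that fell in PEA2, 8 also fell in PEO4. Irrespective of PEA2, 17 of the 40 members and 21.9% of all genes fell in PEO4. Over the members, the log2FC of PEA2 and PEO4 had a Pearson correlation of 0.0005. The 8 genes were CCNA2, CCNB2, BUB1B, KIF2C, NUSAP1, CDC20, PCNA and TYMS. The CCNA2 and NUSAP1 calls in PEA2 and the KIF2C and TYMS calls in PEO4 were lost in some settings. All 4 genes that fell in CP70, CDK1, CDC6, GINS2 and PCNA, also fell in PEO4, where they were 4 of 17. Of all 2277 genes that fell in CP70, 20.3% also fell in PEO4, and the GINS2 call in CP70 and the CDK1 call in PEO4 were among those lost in some settings. The lines of 1 pair are in no other, so the log2FC of 2 pairs share no libraries. The spread was estimated from all 18 libraries, so the calls of the pairs are not independent.

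The difference between pairs was tested itself as a contrast of 2 log2FC. The change in PEA2 differed from that in CP70 for 28 of the 40 genes at a limma FDR below 0.05, where 57.5% of all genes differed. The change in PEO4 differed from that in CP70 for 21 (all genes 47.5%), and that in PEA2 from that in PEO4 for 25 (all genes 58.7%). The largest difference was in CDK1 between PEA2 and CP70 (log2FC = 2.40 ± 0.14, FDR = 3.76e-11), followed by TYMS (log2FC = -2.35 ± 0.17, FDR = 5.39e-10) and CDC45 (log2FC = 2.17 ± 0.28, FDR = 1.7e-06). Between PEA2 and PEO4 the order was CDC45 (2.15), TYMS (-2.03), MCM3 (-1.66) and MCM2 (1.53). Between PEO4 and CP70 it was FOXM1 (-1.56), CDK1 (1.55) and CCNB2 (-1.36). For PCNA the fall in PEO4 was larger than in CP70 (-1.11, FDR = 4.93e-07), while the falls in PEA2 and CP70 were not distinguished (0.13, FDR = 0.39).

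A model of all 18 libraries with pair and sensitivity as terms called 8 of the 40 genes (all genes 24.1%). On average over the pairs, TTK (0.63) and KIF20A (0.75) were higher in the resistant lines. PCNA (-0.84), TYMS (-0.90), KIF2C (-0.42), CDC6 (-0.41), BUB1B (-0.34) and BUB1 (-0.28) were lower. PCNA had the lowest FDR of the 8 (0.000824) and was the only one called in all 3 pairs. In CP70 the log2FC was 0.01 for TTK and -0.01 for TYMS, and in PEA2 it was 0.07 for KIF20A and -0.07 for CDC6. BUB1 was called in PEA2 only. BUB1B (0.23) and KIF2C (0.05) had the opposite sign in CP70, where neither was called. This model counts libraries of 1 line as replicates of resistance. With the 3 pair differences as the replicates, limma called 0 of the 40 genes, and PCNA was the 1 gene with an unadjusted p under 0.05, where the same fit called 0 of all 12853 genes and gave 395 at that p.

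Further genes of the same processes were also measured, and among those called more S phase genes fell than rose in all 3 pairs, while more mitosis genes rose in CP70 and more fell in PEA2 and PEO4. Of 55 further S phase genes, 4 rose and 11 fell in CP70, 9 rose and 26 fell in PEA2, and 6 rose and 22 fell in PEO4, with median log2FC of -0.25, -0.35 and -0.33, against -0.02, 0.01 and -0.02 over all genes. Of 59 further mitosis genes, 22 rose and 9 fell in CP70, 13 rose and 23 fell in PEA2, and 4 rose and 26 fell in PEO4, with medians of 0.14, -0.18 and -0.27. The called shares of the further S phase genes were 27.3%, 63.6% and 50.9% and those of the further mitosis genes 52.5%, 61.0% and 50.8% in CP70, PEA2 and PEO4, against 39.9%, 61.9% and 41.5% of all genes.

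In CP70 the further mitosis genes were led by CEP55, which completes cytokinesis (log2FC = 1.92, FDR = 2e-10), and FBXO5, an inhibitor of the ligase that CDC20 activates (log2FC = 1.19, FDR = 3.04e-05), while CKAP2, a spindle protein (log2FC = -0.93, FDR = 3.83e-06), and SMC2, a condensin subunit (log2FC = -0.74, FDR = 0.000152), fell most. The S phase genes E2F2 (log2FC = 0.83, FDR = 0.00664) and POLA2, a subunit of DNA polymerase alpha (log2FC = 0.66, FDR = 1.25e-05), rose most, and CHAF1B, of a chromatin assembly factor (log2FC = -0.86, FDR = 0.000402), fell most. In PEA2 the kinase gene PBK (log2FC = -2.14, FDR = 1.57e-11) and CDCA2 (log2FC = -1.55, FDR = 7.55e-10) fell most among mitosis genes, and SPC24 of the kinetochore (log2FC = 1.49, FDR = 2.6e-07) and GTSE1 (log2FC = 1.36, FDR = 1.79e-08) rose most. The replication initiation genes MCM10 (log2FC = -1.99, FDR = 3.61e-12) and ORC1 (log2FC = -1.45, FDR = 8.11e-09) fell, and RFC4, a subunit of the loader of the PCNA clamp (log2FC = 1.22, FDR = 2.35e-08), rose. In PEO4, RFC4 fell most (log2FC = -1.22, FDR = 6.26e-08), as PCNA did among the members, followed by UHRF1 (log2FC = -0.90, FDR = 9.56e-05), and CCNE1, the cyclin of S phase entry (log2FC = 0.80, FDR = 0.0256), and PRIM2, a primase subunit (log2FC = 0.66, FDR = 0.00717), rose. The phosphatase gene CDC25B, an activator of CDK1 (log2FC = -1.96, FDR = 8.86e-12), and CENPM (log2FC = -1.60, FDR = 0.000131) fell most among mitosis genes there, and SPC25 of the kinetochore (log2FC = 1.22, FDR = 0.000136) and KIF18B (log2FC = 0.71, FDR = 0.000121) rose most.

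**Figure D5:**
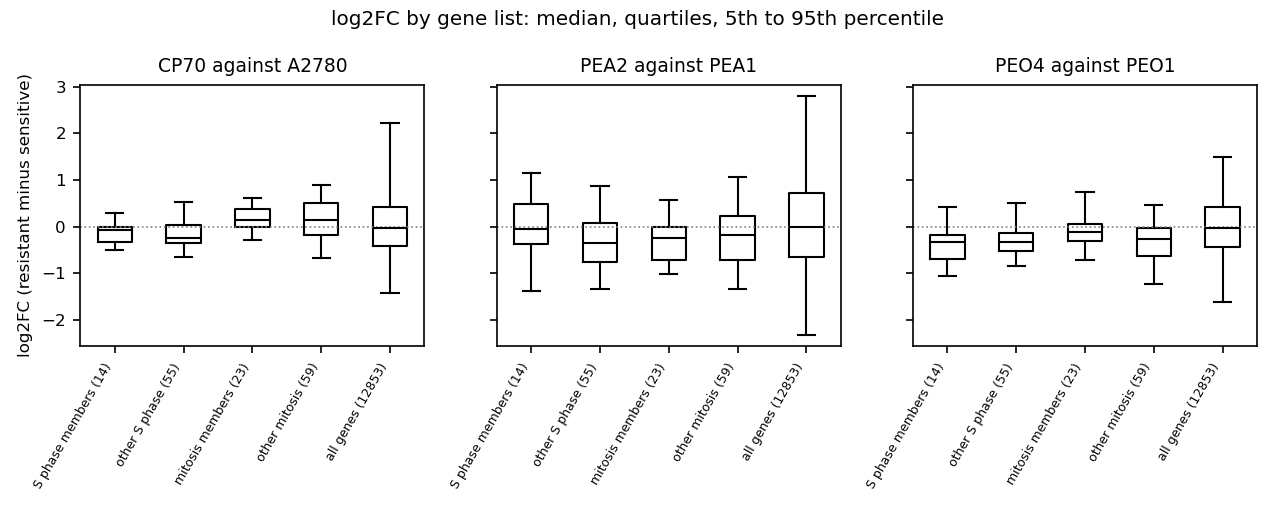
Log2FC (vertical axis, resistant minus sensitive) in the 3 pairs for the member and further S phase and mitosis genes and for all genes, as median (line), quartiles (box) and 5th to 95th percentile (whiskers), with the number of genes in brackets. The medians of both S phase lists are below 0 in all 3 pairs (that of the members in CP70 was 0.01 with quantile normalization), those of both mitosis lists are above 0 in CP70 (0.15 and 0.14) and below 0 in PEA2 and PEO4, and the whiskers of all genes are the widest.

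By promoter letters, the 13 members with a CHR had a median log2FC of 0.23 in CP70, -0.47 in PEA2 and -0.23 in PEO4, and the 20 without had -0.07, -0.26 and -0.32. The 12 members with an E2F site had medians of -0.11, -0.33 and -0.50, and the 21 without had 0.14, -0.28 and -0.15. Members that hold the same letters moved both ways. Of those with a CHR, CCNB2 and CDC20 fell in PEA2 and CDK1 and PLK1 rose, and of those with an E2F site, MCM2 rose in PEA2 and MCM3 fell.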

How the data were processed

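RNA-seq was analysed for 18 libraries, and the other assays of the study were not analysed here. The authors made strand-specific libraries, counted aligned reads per hg19 gene (featureCounts) and normalized the counts (limma). The processing notes also name Bowtie2, and versions are not given in the sources used here, nor is whether the counting used the strand, so reads of a member and of a gene that overlaps it on the other strand may not be told apart. The deposited values are log2 CPM (reads plus 0.5, relative to a scaled library size). Whole reads were recovered from all of them to within 0.01 reads and served only to give depth, where 3 reads equal 0.452 to 2.18 CPM (counting error only).

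The deposited log2 values of 12853 genes were fitted with limma 3.58.1 (R 4.3.3) with a mean for each of 6 lines, a variance trend and 12 residual degrees of freedom. Genes were called at an FDR below 0.05 (Benjamini-Hochberg over all genes), and the threshold of the study, a log2FC past 2, was added where stated. A log2FC is the resistant minus the sensitive line. The 40 genes, the further lists and the tests were chosen with earlier results of these data known. Values by library are given for TYMS and the largest changes, up to 4 higher and 4 lower in each pair, and for MKI67, PCNA, TOP2A, CDK1, FOXM1 and E2F1, and the further lists are named by up to 2 genes in each direction. Some genes of the further lists are not reported here. In simulated data for the PEO pair, limma called 94 of 104 genes changed by a log2FC of 1, 31 of 96 changed by 0.5 and 0 of 12653 unchanged genes. Few genes were changed there, whereas 41.5% of all genes were called in the data of this pair. The FDR was therefore harder to pass in the simulation, and these shares do not measure the power of the tests in the data.

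Gene spans came from a GRCh37 annotation and promoters from RefSeq (GRCh38.p14). The spread between same-numbered replicates was checked for pairing (correlations -0.04 to 0.05). Alternatives covered each pair alone, scaling, weights, trend, a filter on low values (mean log2 CPM above 0), the reads added, and leaving out each library.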

Additional observations from a re-analysis of the deposited data

Results flagged for a closer look

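For 14 genes the change went in opposite directions in 2 pairs, each called, where 27.5% of all genes did. The difference itself also passed the limma test (FDR below 0.05), in 19 comparisons in all. This adds no support, because 2 calls in opposite directions nearly fix that outcome. Each value is the log2FC of the first pair minus that of the second. Between PEA2 and CP70 the difference was 2.40 for CDK1, -1.62 for PRC1, -1.39 for KIF23, -1.38 for MYBL2, -1.25 for CDC20, -1.14 for CCNB2, -0.86 for NUSAP1 and -0.51 for CCNA2. CDK1 is the 1 gene of these 8 that was higher in PEA2 and lower in CP70.

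Between PEO4 and CP70 it was -1.56 for FOXM1, -1.36 for CCNB2, -1.26 for E2F1, -1.24 for CDC20, -1.03 for NUSAP1 and -0.74 for CCNA2, all higher in CP70 and lower in PEO4. Between PEA2 and PEO4 it was -1.66 for MCM3, 1.53 for MCM2, 1.30 for MCM5, 0.89 for RRM1 and 0.84 for CDK1. MCM3 is the 1 gene of these 5 that was lower in PEA2 and higher in PEO4. Each pair is 1 line against 1 line, so a difference between pairs and a difference between lines cannot be told apart.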

How the results depend on the processing

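Adding a log2FC past 1 to the FDR left 0 members higher and 1 lower in CP70, 2 and 4 in PEA2, and 1 and 2 in PEO4. Of all 12853 genes, 2470, 4320 and 2418 passed in either direction in these pairs, in each a larger share than of the 40 members. The median log2FC moved from 0.07 to 0.11 in CP70 with quantile normalization and to 0.025 with equal library medians, and from -0.24 to -0.40 and -0.34 in PEA2, where both scalings moved the median of all genes by -0.105, so that the members lay 0.30 and 0.24 below it. The call of MKI67 in PEA2 was lost and its sign turned with quantile normalization (log2FC -0.088, FDR = 0.561). With the 3 pair differences as replicates the model of all pairs called 0 members.

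Leaving out 1 library gave 9 to 13 members higher and 3 to 5 lower in CP70, 7 to 9 and 16 to 20 in PEA2, and 4 to 5 and 14 to 19 in PEO4. The counts past a log2FC of 2 were 0 in CP70 and PEO4 and 1 to 2 in PEA2. The medians ran from 0.05 to 0.08, -0.28 to -0.17 and -0.27 to -0.15. Differences between pairs ran from 26 to 31, 19 to 23 and 25 to 27, and the model of all pairs gave 6 to 9.

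The alternatives were followed gene by gene for 70 values. They were all 65 calls of the 3 pairs and uncalled values of MKI67, TOP2A, FOXM1 and E2F1. Of the 65 calls, 48 held in every alternative and 17 were lost in at least 1. The other uncalled values were not followed gene by gene. Replicate numbers did not pair the libraries, and the replicate block gave 12 higher and 4 lower members in CP70, 8 and 19 in PEA2, 5 and 17 in PEO4, and 6 in the model of all pairs. Within 150 bases before the start, 50% of mitosis members held a CHR, 83.3% a CCAAT box, and 46.2% of S phase members an E2F site. Depth was lowest in PEA1. Changes of a log2FC of 0.5 were mostly missed in simulated data, where few genes were changed and the FDR was harder to pass than in the data.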
